A study of Mus musculus with 36 samples.

Results

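The NF-kB system was followed through 8 mouse genes: the subunits Nfkb1, Nfkb2, Rela and Relb, the inhibitors Nfkbia, Nfkbie and Tnfaip3, and the adhesion gene Icam1. Every probe set assigned to 1 of these symbols was taken, which gave 11 of the 22690 probe sets on the array and covered 7 of the 8 genes, out of 12394 genes with a probe set of their own. Nfkb1 was not analysed here, because no probe set in the probe table used here carried its symbol. Total RNA had been hybridised to 36 expression arrays, 24 of primary mouse microglia and 12 of BV-2, a mouse microglial cell line. The microglia came from wild-type (WT) mice, from mice lacking Usp18 (KO) and from Usp18 C61A mice, whose enzyme carries an exchange of its catalytic cysteine. BV-2 cells had received a control siRNA or an siRNA against Usp18. Cells of each kind were left untreated (0 h) or kept in 500 U/ml IFN-b, a type I interferon, for 6 h or 24 h. WT microglia occur in 2 of the 3 deposition runs of 12 arrays, run 1 beside KO and run 3 beside C61A, while run 2 holds BV-2. The labels do not say what these runs are, so run and culture cannot be told apart. This gave 18 groups of 2 arrays. The labels call the replicates biological but name no animals, so p-values measure the spread between these arrays. The labels do not limit the deletion or the exchange to microglia, and no age of the mice is given there.

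NF-kB proteins are dimers that wait in the cytoplasm bound to inhibitory IkB proteins. Receptors for cytokines and microbial products switch on the IKK kinases, which mark IkB for destruction and let Rela-containing dimers enter the nucleus, while a slower route processes the Nfkb2 product and frees Relb-containing dimers. Several inhibitors are themselves targets of NF-kB and so end the response. In microglia the system is known for driving inflammatory cytokines, and Icam1, a ligand of leukocyte integrins, is a widely used surface readout. Usp18 removes the ubiquitin-like protein Isg15 from other proteins, which needs the catalytic cysteine, and separately holds back signalling from the type I interferon receptor, which does not.

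Sequences just before the start sites are shown because several of these genes are known targets of NF-kB, and because the kinds of motif differ between them. Each run holds the 150 bases before the most upstream start site listed in the RefSeq promoter table (build GRCm38.p6), written 5′ to 3′ on the gene's strand. Capitals mark matches, on either strand, to the kappa B consensus or to the gamma-activated site TTCNNNGAA.
Nfkb2: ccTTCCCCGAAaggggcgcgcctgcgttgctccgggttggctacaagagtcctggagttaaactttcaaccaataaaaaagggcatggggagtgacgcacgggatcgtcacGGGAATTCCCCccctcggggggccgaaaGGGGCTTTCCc
Nfkbia: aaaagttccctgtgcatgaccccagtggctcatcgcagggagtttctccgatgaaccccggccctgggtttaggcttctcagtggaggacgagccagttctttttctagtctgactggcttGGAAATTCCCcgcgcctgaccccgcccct
Nfkbie: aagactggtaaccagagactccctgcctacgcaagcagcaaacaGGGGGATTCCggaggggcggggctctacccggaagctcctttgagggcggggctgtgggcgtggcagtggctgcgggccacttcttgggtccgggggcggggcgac
Tnfaip3: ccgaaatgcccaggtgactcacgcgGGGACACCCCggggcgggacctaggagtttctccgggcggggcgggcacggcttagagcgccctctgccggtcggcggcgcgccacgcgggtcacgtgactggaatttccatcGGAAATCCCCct
Icam1: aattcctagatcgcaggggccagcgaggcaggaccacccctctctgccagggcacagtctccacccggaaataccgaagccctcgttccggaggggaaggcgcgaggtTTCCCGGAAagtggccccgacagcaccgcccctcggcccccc

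The windows lie at chr19:46304587-46304736 (Nfkb2, plus strand), chr12:55492648-55492797 (Nfkbia, minus strand), chr17:45555550-45555699 (Nfkbie, plus strand), chr10:19015411-19015560 (Tnfaip3, minus strand) and chr9:21015790-21015939 (Icam1, plus strand). Counting back from the start site, Nfkb2 held kappa B matches whose first base is at −39, −38 and −11, the former pair overlapping, and a gamma-activated match at −148. The kappa B match of Nfkbia began at −29 and that of Nfkbie at −106, and Tnfaip3 had 2, at −125 and −12. In Icam1 the gamma-activated match began at −42, and no kappa B match was found in this window. For Nfkb2, 2 further start sites are listed, and for Tnfaip3 a second one, whose promoters are not shown. Rela had neither in its own window, and RefSeq's table lists none for Relb. The core of the interferon-stimulated response element was in none of the member promoters listed. Of 32851 promoters of 300 bases in the table, 8.46% held the kappa B consensus, 8.30% TTCNNNGAA and 3.44% the interferon-stimulated core. A match is a description of letters and not evidence of binding.

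Usp18, the targeted gene, measured 4.40 and 3.77 (log2 intensity) in untreated KO arrays and 5.68 and 5.99 in untreated WT arrays of run 1, all near or under the array medians of 5.594 to 5.827. At 6 h the KO arrays read 6.42 and 5.85 against 12.56 and 12.41 in WT, a difference of −6.35 ± 0.91 (SE; limma, adjusted p = 0.00226). In BV-2 cells Usp18 mRNA of the arrays labelled Usp18 siRNA differed from control siRNA by −0.02 ± 0.45 at 0 h, −0.29 ± 0.45 at 6 h and −0.34 ± 0.45 at 24 h (adjusted p = 1.00, 0.763 and 0.632), so the mRNA gives no check of those labels. Of 13 microglia and macrophage markers, 12 or 13 lay above the array median in every microglia group and 8 or 9 in BV-2, where C1qa, Cx3cr1 and P2ry12 exceeded it on 1, 3 and 1 of 12 arrays. Astrocyte markers summed to 39.9 to 50.0 over 9 genes in run 1 and to 47.4 to 78.2 in run 3. As these are bulk RNA samples, fewer cells of a type and less RNA per cell cannot be told apart.

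Before the results, 3 arrays go against their labels or their partner. The array labelled untreated WT replicate 1 of run 3 read 12.97 for Usp18 where its partner read 9.31, and its mean over 10 interferon response genes was 12.01 against 7.24. C61A 6 h replicate 2 had a mean of 9.51 over those genes against 12.10 in its partner. Astrocyte markers summed to 59.6 in that untreated WT array, beside 47.4 and 48.4 in replicate 1 of WT of run 3 at 6 h and 24 h. In C61A 6 h replicate 2 they summed to 47.5, beside 59.1 and 58.0 in replicate 2 of C61A at 0 h and 24 h. Whether these 2 arrays were exchanged was not tested. Usp18 siRNA 6 h replicate 2 of BV-2 read 9.96 for C1qa, a complement gene of microglia, against 3.93. Where leaving out these 3 arrays changes a call, the value without them is given.

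The members differed in how strongly their groups were set apart. Levels below are compared within a gene only, since probe sets of different genes are not on a common scale per length. Nfkbia was bright everywhere (11.29 to 12.74 in all 36 arrays), whereas Nfkbie lay above the array median on 10 of 24 microglia arrays and 2 of 12 BV-2 arrays, and Tnfaip3 on 15 and 11. Relb, the subunit of the slower route, was above the median on all 24 microglia arrays and on 2 of 12 BV-2 arrays. Ranked by group mean, WT 6 h of run 1 stood first for Relb (8.97), Nfkb2 (8.87), Nfkbie (7.79), Icam1 (10.88) and Rela (9.67), and KO 6 h stood first for Tnfaip3 (7.29), which encodes the ubiquitin-editing enzyme A20. Of the 17 pairs of neighbours in that order, the arrays did not overlap in 9 for Relb, 4 for Rela, 2 each for Nfkbia and Icam1, 1 for Nfkbie and 0 for Tnfaip3. Nfkb2 is ordered among the 12 microglia groups only, because another probe set reads it in BV-2. For Relb, Nfkb2 and Rela every run 1 array exceeded every run 3 array, in WT and mutants alike, which held for 6.53% of all genes. Icam1 did not follow that order: untreated WT arrays of run 3 read 10.26 and 9.41, above the 8.62 and 8.29 of run 1.

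**Figure D1:**
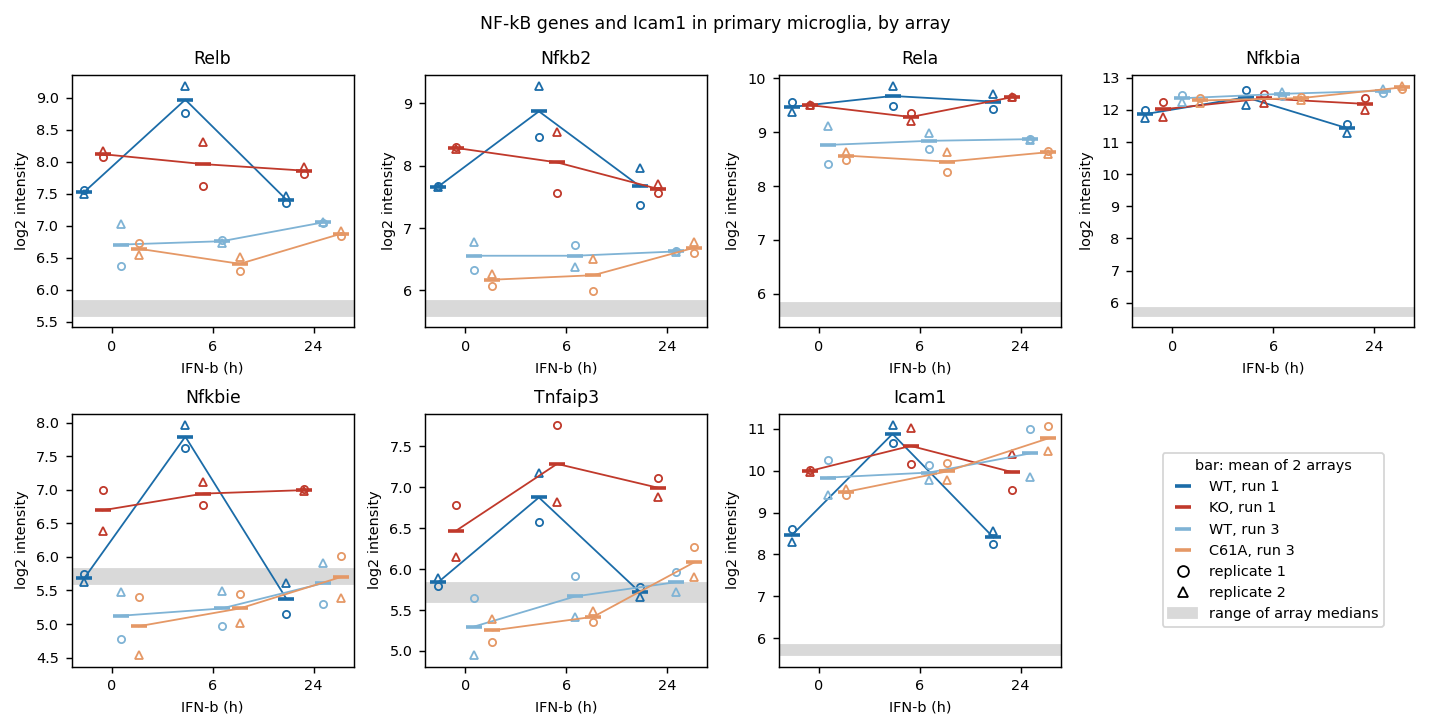
Log2 intensity of 6 NF-kB genes and Icam1 in 24 arrays of primary microglia against hours in IFN-b (points: arrays; bars: means of 2 arrays; grey band: range of array medians, 5.594 to 5.827). WT of run 1 peaks at 6 h for Relb, Nfkb2, Nfkbie, Tnfaip3 and Icam1, and the Nfkbie arrays of KO stay between 6.39 and 7.11 at all times.

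In WT microglia of run 1, 6 h of IFN-b went with higher mRNA of the slower-route subunits, of the inhibitors Nfkbie and Tnfaip3, and of Icam1, while Rela, the main activating subunit, was not shown to change. Relb read 7.56 and 7.50 untreated and 8.75 and 9.18 at 6 h. It rose by 1.44 ± 0.23 on the log2 scale (2.71-fold, adjusted p = 8.3e-04), with no overlap of the arrays. Nfkb2, whose product is the precursor of p52, read 7.67 and 7.65 before and 8.47 and 9.28 after, a rise of 1.21 ± 0.32 (2.31-fold, adjusted p = 0.0136). The second Nfkb2 probe set did not show this rise, at 0.11 ± 0.20 (adjusted p = 0.745), so the result holds for the brighter probe set only. Rela changed by 0.20 ± 0.21 (95% interval −0.25 to 0.66, adjusted p = 0.524).

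Among the inhibitors, Nfkbie, which encodes IkB-epsilon, went from 5.75 and 5.62 to 7.62 and 7.96, a rise of 2.11 ± 0.35 (4.31-fold, adjusted p = 0.00107) from near the array median. Tnfaip3 went from 5.79 and 5.89 to 6.57 and 7.18, a rise of 1.04 ± 0.32 (2.05-fold, adjusted p = 0.0308). Nfkbia, which encodes IkB-alpha, read 11.98 and 11.75 before and 12.63 and 12.15 after. That change of 0.52 ± 0.21 missed the threshold (adjusted p = 0.0751), but the probe set 1448306_at of the same gene read 10.13 and 10.03 before and 11.40 and 11.41 after (1.33 ± 0.22, adjusted p = 0.00114 over probe sets). Icam1 read 8.62 and 8.29 untreated and 10.67 and 11.09 at 6 h. It rose by 2.43 ± 0.41 (5.38-fold, adjusted p = 0.00116), the largest change of the 7 genes in this comparison. In all, 5 of the 7 genes rose, where 10.8% of the 7960 genes tested were called higher and 14.1% lower (856 and 1122 genes, or 911 and 788 with arrays centred on their medians). Their median change was 1.21, beside −0.14 for all genes tested. The calls for Nfkb2 and Tnfaip3 were lost without untreated WT replicate 1 (1.22 and 0.99, adjusted p = 0.0653 and 0.127), untreated WT replicate 2 (1.20 and 1.08, 0.0721 and 0.105) or WT 6 h replicate 2 (0.80 and 0.74, 0.169 and 0.246), and those of Relb, Nfkbie and Icam1 held in all 24 fits that left out 1 array. Between these 0 h and 6 h arrays the endothelium and fibroblast markers, 10 genes, went from a sum of 40.8 to 43.3 to one of 47.6 to 48.4, with Kdr (3.09 ± 0.42), Flt1 (1.85 ± 0.53) and Cdh5 (1.03 ± 0.29) called. Cdh5 read 5.21 and 5.43 at 6 h, still under the array medians. Cldn5, Col1a1 and Lum of that list were under the median on all 24 microglia arrays. Their part in the rise of Icam1, which endothelium also makes, was not tested.

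In WT microglia of run 3 none of the 7 genes passed the test at 6 h (limma, adjusted p at least 0.997, 0 with an unadjusted p under 0.05), where 0.0126% of genes were called higher. Icam1 read 10.26 and 9.41 untreated and 10.14 and 9.78 at 6 h, overlapping throughout. Relb read 6.38 and 7.03 and then 6.78 and 6.73, and Nfkbie 4.78 and 5.47 and then 4.98 and 5.49. Without the 3 arrays in doubt, among them the untreated one of this run, none passed either (adjusted p at least 0.506), while the calls over all genes went from 1 to 255. The test of run 1 against run 3 gave 1.39 ± 0.32 for Relb (adjusted p = 0.0557), 2.00 ± 0.49 for Nfkbie (0.0643) and 2.31 ± 0.57 for Icam1 (0.0678), so no difference between the runs was called.

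Averaged over both runs, Relb rose by 0.75 ± 0.16 (adjusted p = 0.00890), Nfkbie by 1.11 ± 0.25 (0.0100) and Icam1 by 1.27 ± 0.29 (0.0107), which is 3 of 7 genes against 7.59% of all genes called higher (604 higher and 622 lower, or 668 and 347 with centred arrays). Tnfaip3 measured 0.70 ± 0.23 (0.0511) and Nfkb2 0.60 ± 0.22 (0.0803). With same-numbered WT arrays of a run paired across times through a block by culture, 6 of 7 genes rose, all but Rela. A replicate block, which also joined the mutant arrays of that number, called the same 6. With run as an additive term 0 of 7 passed, and without the 3 arrays in doubt Tnfaip3 passed as well (0.88 ± 0.25, adjusted p = 0.0229). Icam1 lost its call without WT 6 h replicate 2 of run 1 (1.17, 0.0508) or untreated WT replicate 2 of run 3 (1.06, 0.0647).

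At 24 h of IFN-b the levels in WT run 1 were back near or under those of untreated cells, and 0 of 7 genes passed the test against 0 h in either run or in their average (limma, adjusted p at least 0.335; 0 of 7 had an unadjusted p under 0.05), where 2.59% of all genes did so for the average. Relb read 7.35 and 7.46, Nfkbie 5.15 and 5.61, and Icam1 8.26 and 8.55. Nfkbia read 11.57 and 11.29, under its untreated arrays of 11.98 and 11.75. Each of its other probe sets also read lower in both 24 h arrays than in both untreated arrays. Both 24 h arrays of run 1 lay under both 6 h arrays for 6 of the 7 genes, Rela being the exception, as they did for 25.6% of all genes tested. In run 3 this was so for 0 of 7 and for 18.6% of all genes.

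**Figure D2:**
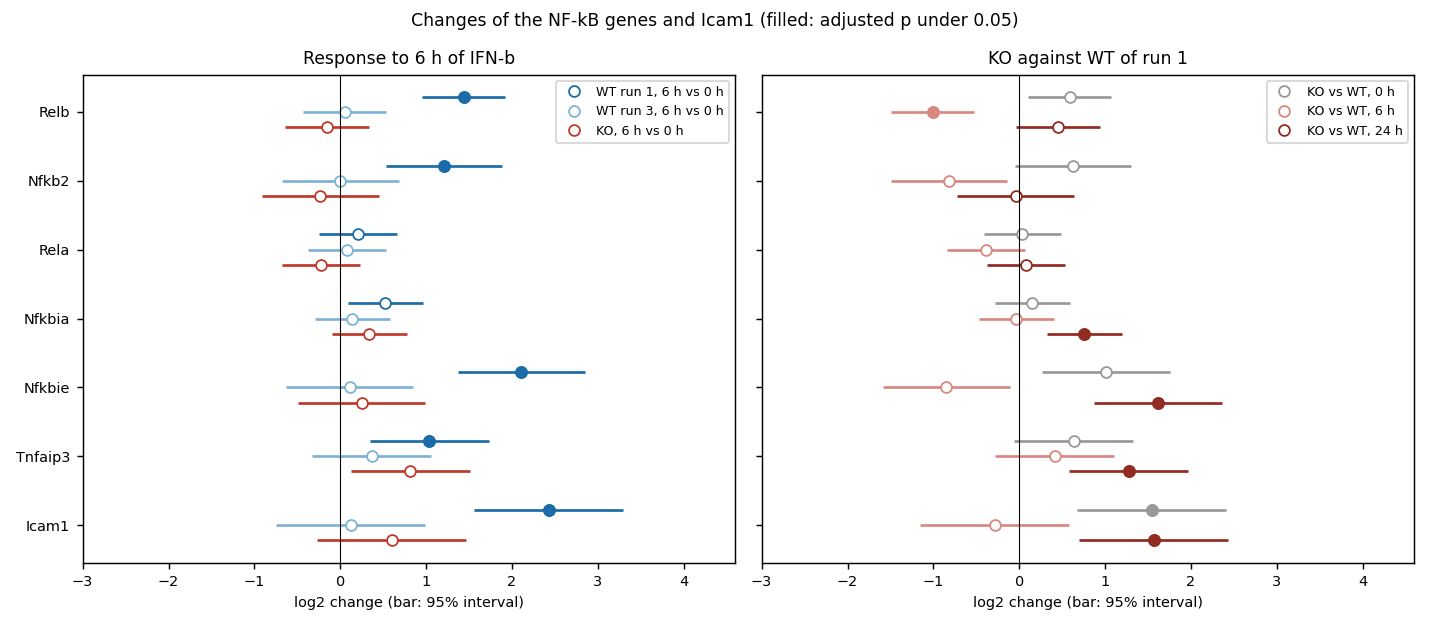
Log2 changes with 95% intervals for the response to 6 h of IFN-b (left; WT run 1, WT run 3, KO) and for KO against WT of run 1 at each time (right); filled points have an adjusted p under 0.05. Relb is the only filled point left of 0 (−1.01 at 6 h), and Nfkbia, Nfkbie, Tnfaip3 and Icam1 are filled at 24 h.

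Without IFN-b, KO microglia had more Icam1 mRNA than WT of run 1. The KO arrays read 10.01 and 9.98 and the WT arrays 8.62 and 8.29, a difference of 1.54 ± 0.41 (2.91-fold, adjusted p = 0.0205). Icam1 was the only member called of 7, where 8% of all genes were called higher and 8.78% lower. Nfkbie read 6.995 and 6.393 in KO and 5.75 and 5.62 in WT (1.01 ± 0.35, adjusted p = 0.0594), Relb 8.07 and 8.16 against 7.56 and 7.50 (0.59 ± 0.23, 0.0883), and Tnfaip3 6.79 and 6.15 against 5.79 and 5.89 (0.63 ± 0.32, 0.195). Nfkb2 read 8.30 and 8.27 against 7.67 and 7.65 (0.62 ± 0.32, 0.193). Both KO arrays lay above both WT arrays for these 4 genes, which did not pass the threshold, and for Icam1, as they did for 25.5% of all genes. Rela (0.04 ± 0.21) and Nfkbia (0.15 ± 0.21) were close to 0, with intervals of −0.42 to 0.49 and −0.29 to 0.59. Without the 3 arrays in doubt Nfkbie passed as well (adjusted p = 0.0481). The Icam1 call was lost without KO replicate 1 (1.53, adjusted p = 0.140), WT replicate 1 (1.71, 0.0654), WT replicate 2 (1.38, 0.136) or with run as an additive term (1.26, 0.195). The untreated KO arrays also carried interferon response genes at a mean of 12.28 and 11.99 against 6.28 and 6.52 in WT, with 10 of 10 such genes called higher. Its part in the Icam1 difference was not tested.

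At 6 h the order turned for Relb. KO read 7.62 and 8.30 and WT of run 1 8.75 and 9.18, a difference of −1.01 ± 0.23 (2.01-fold lower in KO, adjusted p = 0.0180). It was the only member called of 7, where 5.44% of all genes were lower and 2.88% higher (433 and 229 genes, or 265 and 237 after a further quantile normalization). Nfkb2 read 7.56 and 8.55 in KO against 8.47 and 9.28 (−0.82 ± 0.32, adjusted p = 0.125), and Nfkbie 6.77 and 7.11 against 7.62 and 7.96 (−0.85 ± 0.35, 0.144). The Nfkbie arrays did not overlap and those of Nfkb2 did. Icam1 overlapped as well, with 10.16 and 11.03 in KO and 10.67 and 11.09 in WT (−0.29 ± 0.41, 95% interval −1.15 to 0.58, adjusted p = 0.731). The Relb difference was lost without KO 6 h replicate 1 (−0.66, 0.253), WT 6 h replicate 2 (−0.79, 0.134) or with run as an additive term (−0.47, 0.400).

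Fitted without pairing, KO cells showed no called response of these genes to 6 h or 24 h of IFN-b (limma, 0 of 7 each, 1 and 0 with an unadjusted p under 0.05, adjusted p at least 0.124, where 8.45% and 3.97% of all genes passed). Same-numbered KO arrays correlated across times at 0.685 to 0.811, and with the block by culture Tnfaip3 was called at 6 h. At 24 h the count stayed at 0 of 7. Relb went from 8.07 and 8.16 to 7.62 and 8.30 at 6 h (−0.16 ± 0.23, adjusted p = 0.731), and Icam1 from 10.01 and 9.98 to 10.16 and 11.03 (0.60 ± 0.41, 0.376). Tnfaip3 went from 6.79 and 6.15 to 7.76 and 6.81 (0.82 ± 0.32, 0.124). The response of KO was smaller than that of WT for Relb, by −1.59 ± 0.32 (adjusted p = 0.0354), the only one of the 7 genes called without pairing, where 1.14% of all genes were. The same difference was −1.86 ± 0.49 for Nfkbie (0.0865), −1.83 ± 0.57 for Icam1 (0.148) and −1.44 ± 0.45 for Nfkb2 (0.146). Without the 3 arrays in doubt Nfkbie passed too (adjusted p = 0.0401). Relb lost this call in 12 of 24 fits without 1 array, and the difference lay between −1.94 and −1.25 in all 24. With the block by culture the 6 h difference was called for Icam1, Nfkb2, Nfkbie and Relb, and more genes were called in all. The 24 h responses of KO and WT were not called different for any of the 7 (0.716% of genes were).

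At 24 h the member inhibitors and Icam1 were higher in KO than in WT of run 1, and the 3 member subunits with a probe set were not called. Rel, a subunit outside the members, was called higher in KO (2.39 ± 0.60). Nfkbie read 7.01 and 6.98 in KO and 5.15 and 5.61 in WT (1.62 ± 0.35, 3.06-fold, adjusted p = 0.00386). Tnfaip3 read 7.11 and 6.87 against 5.78 and 5.65 (1.28 ± 0.32, 2.42-fold, 0.0101), and Nfkbia 12.376 and 11.997 against 11.57 and 11.29 (0.76 ± 0.21, 1.69-fold, 0.0139). In each case both KO arrays lay above both WT arrays, as in 5 of the 7 members and 30.2% of all genes. For Nfkbia the WT mean at 24 h (11.43) was the lowest of the 18 groups, while the KO mean was 12.19 at 24 h and 12.02 untreated. Icam1 read 9.55 and 10.39 in KO and 8.26 and 8.55 in WT (1.56 ± 0.41, 2.96-fold, adjusted p = 0.0111). These 4 of 7 genes compare with 11.3% of all genes called higher and 17.7% lower, and the members' median of 0.76 with −0.07 over all genes. Relb differed by 0.45 ± 0.23 (adjusted p = 0.1505), Rela by 0.08 ± 0.21 (0.815) and Nfkb2 by −0.04 ± 0.32 (0.941). Nfkbie kept its call in all 24 fits without 1 array. Icam1 lost it without KO 24 h replicate 2 (1.14, adjusted p = 0.107) or WT 24 h replicate 1 (1.42, 0.0789), and without KO 24 h replicate 1 or WT 24 h replicate 2 so did Nfkbia (0.57 and 0.61, 0.141 and 0.111) and Tnfaip3 (1.16 and 1.21, 0.0794 and 0.0608). With run as an additive term 0 of 7 passed (adjusted p 0.0514 for Tnfaip3 and 0.165 to 0.239 for the other called genes).

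**Figure D3:**
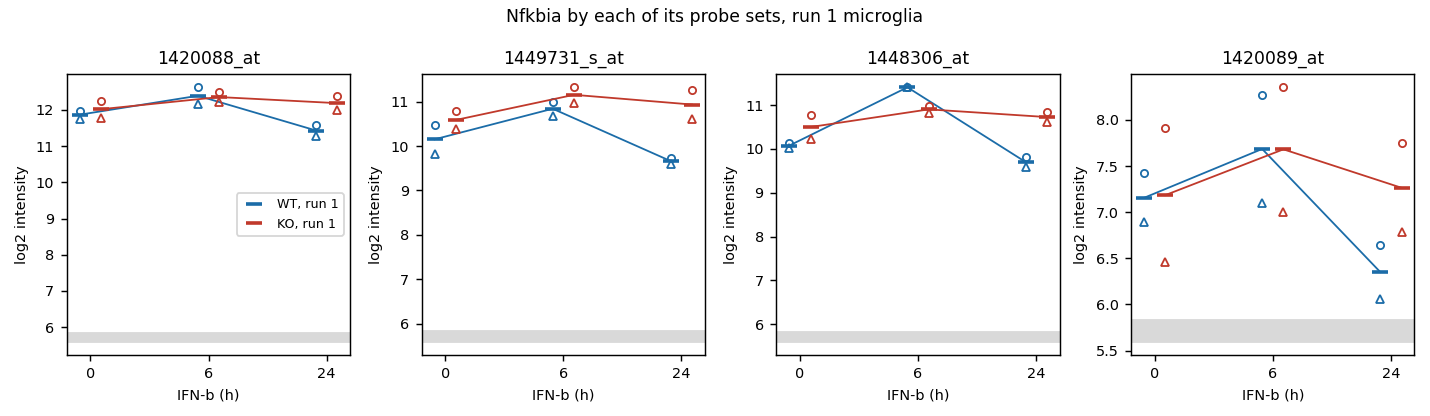
Log2 intensity of Nfkbia by each of its 4 probe sets in run 1 microglia against hours in IFN-b (points: arrays; bars: means of 2 arrays; grey band: range of array medians). At 24 h the means of KO exceed those of WT on every probe set, by 0.76 to 1.27 on the log2 scale, while at 6 h their order differs between probe sets.

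Nfkbia was the member read by 4 probe sets, and 3 of them called the 24 h difference between KO and WT when all 12468 probe sets were tested. They measured 0.76 ± 0.21 (1420088_at, adjusted p = 0.0157), 1.03 ± 0.22 (1448306_at, 0.00374) and 1.27 ± 0.24 (1449731_s_at, 0.00193). The fourth and dimmest, 1420089_at, measured 0.91 ± 0.54 (0.224), with replicate 1 above replicate 2 in all 6 groups of run 1. At 6 h the differences were −0.50 to 0.31 and none was called.

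Markers of other cells differed between KO and WT of run 1 beside these results. Mrc1, a gene of border macrophages, was lower in KO at 24 h (−4.74 ± 0.67), and the 5 genes of that list summed to 21.8 to 26.2 in KO and 28.3 to 31.7 in WT. Lyve1 and Cd163 were under the array median on all 24 microglia arrays. The 10 genes of endothelium and fibroblasts summed to 47.5 to 52.5 in KO and 40.8 to 48.4 in WT, with Kdr higher in KO at 24 h (3.55 ± 0.42), while Cldn5, Col1a1 and Lum were under the median on all 24 arrays, Pecam1 above it on 4 and Cdh5 on 2. The 6 monocyte and granulocyte genes summed to 25.9 to 31.2 in KO and 22.1 to 23.8 in WT, with Ccr2, S100a9, Ngp and Camp under the median throughout. Plac8 of that list differed by 5.49 ± 0.65 at 24 h, but exceeded the array median on only 5 of 24 arrays, all of them KO. It passed the filter through those arrays alone, so it had to differ there, and the value is a description. The part of these cells in the differences of Icam1 and the inhibitors was not tested. The 13 microglia and macrophage genes summed to 137.6 and 139.2 in KO at 24 h and to 146.6 and 146.2 in WT. In both groups 12 of the 13 lay above the array median. Of that list Cx3cr1 (−3.47 ± 0.50) and Trem2 (−2.56 ± 0.67) were lower in KO at 24 h. Untreated, Aif1 (1.29 ± 0.22) and Ptprc (0.53 ± 0.15) were higher in KO and Cx3cr1 was lower (−1.72 ± 0.50).

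C61A microglia were not called different from WT of run 3 in any of the 7 genes at 0 h, 6 h or 24 h (limma, adjusted p at least 0.810), where 0.0126%, 0.0126% and 0.0251% of all genes were; without adjustment, 391, 252 and 578 of 7960 genes had p under 0.05. Icam1 read 9.43 and 9.56 in untreated C61A, which overlaps the WT arrays, and the difference was −0.34 ± 0.41 with a 95% interval of −1.21 to 0.52. Without the 3 arrays in doubt, the untreated WT array among them, it turned to 0.08 ± 0.48 (adjusted p = 1.00), so its direction rests on that array. In that fit 0 of 7 were called at any of these times (limma, adjusted p at least 0.446), with 3, 4 and 100 genes called in all. At 24 h it was 0.36 ± 0.41 (−0.51 to 1.22), and for Nfkbie 0.09 ± 0.35 (−0.65 to 0.83), so differences of that size remain possible. In response to 24 h of IFN-b C61A Icam1 went to 11.07 and 10.47, a change of 1.28 ± 0.41 that missed the threshold (adjusted p = 0.0628) and passed it without the 3 arrays in doubt (0.0465). Tnfaip3 went from 5.11 and 5.40 to 6.27 and 5.90 (0.83 ± 0.32, 0.121). Fitted by limma without pairing, none of the 7 genes was called at 6 h (0.0503% of genes) or 24 h (5.46% higher, 9.1% either way). Of the 7, 0 and 2 had an unadjusted p under 0.05. The C61A arrays at 24 h lay above both C61A arrays at 6 h for 5 of 7 genes and for 16.9% of all genes. Without the 6 h array in doubt they lay above the remaining one for 6 of 7 and for 33.6% of all genes. With a replicate block, which joined same-numbered C61A and WT arrays of run 3, Icam1 was called at 24 h (limma, adjusted p = 0.0163). Those arrays correlated between genotypes at −0.460 to −0.0437. With the block by culture, which joined same-numbered C61A arrays across times, Icam1, Nfkbia, Nfkbie and Tnfaip3 were called (0.00728, 0.0492, 0.0269 and 0.0200).

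The KO difference was larger than the C61A difference for untreated Icam1, by 1.88 ± 0.57 (adjusted p = 0.0445), the only member called at 0 h, where 7.55% of all genes were called higher and 12.2% either way. This call depends on single arrays of several groups. The difference was 1.46 without the 3 arrays in doubt, the untreated WT array of run 3 among them. It ran from 1.46 to 2.31 in the fits without 1 array, and the call was lost in 13 of these 24. At 6 h and 24 h none of the 7 was called (0.817% and 3.1% of genes), with Nfkbie at 1.52 ± 0.49 at 24 h (0.0954).

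Other genes of the pathway were listed by role. Their counts stand beside these shares of all genes tested for KO against WT. Untreated, 8% were called higher and 8.78% lower, at 6 h 2.88% and 5.44%, and at 24 h 11.3% and 17.7%. For WT of run 1 at 6 h the shares were 10.8% and 14.1%. Of 5 further subunits and IkB proteins, 4 were tested. In KO at 24 h 3 of 4 were higher than in WT: Rel, the subunit c-Rel (2.39 ± 0.60), Nfkbib, which encodes IkB-beta (1.51 ± 0.25), and Bcl3, a nuclear IkB protein (1.12 ± 0.27). Untreated, 2 of 4 were higher, Bcl3 (1.48 ± 0.27) and Nfkbib (1.14 ± 0.25), and at 6 h Rel (2.13 ± 0.60) and Bcl3 (0.93 ± 0.27). In WT of run 1 at 6 h Bcl3 and Nfkbib rose, by 1.86 ± 0.27 and 1.64 ± 0.25. The list median was 1.24 untreated, 0.75 at 6 h and 1.32 at 24 h for KO against WT.

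Of 9 IKK and upstream kinases tested, Ikbke rose in WT of run 1 at 6 h (1.81 ± 0.27) and was lower in KO than in WT at 6 h (−1.11 ± 0.27) and 24 h (−0.91 ± 0.27). Tbk1, a kinase of interferon induction, was higher in KO at 24 h (0.81 ± 0.22), and Ikbkg, the scaffold NEMO, was lower in untreated KO (−0.94 ± 0.26). Of 8 deubiquitinases and A20 partners, 3 were higher in KO at 24 h, namely Zfand5 (0.99 ± 0.34), Rnf11 (0.78 ± 0.12) and Tax1bp1 (0.55 ± 0.17), and 0 were called untreated or at 6 h. Rnf11 and Tax1bp1 are known to act with A20. Of all genes tested, 11.3% were higher in KO at 24 h and 29.1% were called either way.

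Of 18 receptors and adaptors tested, 6 were higher in untreated KO and 0 lower, 0 higher and 1 lower at 6 h, and 7 higher and 2 lower at 24 h. Cd40, a co-stimulatory receptor that feeds the slower route, was higher by 3.96 ± 0.77 untreated and 2.87 ± 0.77 at 24 h, and Traf1, an adaptor, by 2.40 ± 0.72 and 4.11 ± 0.72. Tlr2 was lower at 6 h (−1.86 ± 0.38). In WT of run 1 Cd40 rose by 5.90 ± 0.77 at 6 h, with 7 of the 18 called higher.

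Of 19 other target genes of NF-kB tested, 7 were higher in untreated KO, 3 higher and 2 lower at 6 h, and 9 higher and 1 lower at 24 h. The interleukin Il6 read 8.55 and 7.41 in KO at 24 h and 2.86 and 3.03 in WT (5.04 ± 1.03), and the prostaglandin synthase Ptgs2 8.56 and 7.09 against 3.31 and 2.69 (4.83 ± 0.73). The chemokine Ccl2 was higher both untreated (4.91 ± 0.74) and at 24 h (4.15 ± 0.74). Tnfaip2 went the other way at 6 h (−3.04 ± 0.54). Among 10 adhesion genes listed beside Icam1, not all of them its partners, Itgam was lower in KO at 6 h (−1.59 ± 0.45). Itgam is an integrin chain that binds Icam1. Itga4, a chain of other integrins, was higher at 24 h (0.98 ± 0.35), and 0 of the 10 were called untreated.

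**Figure D4:**
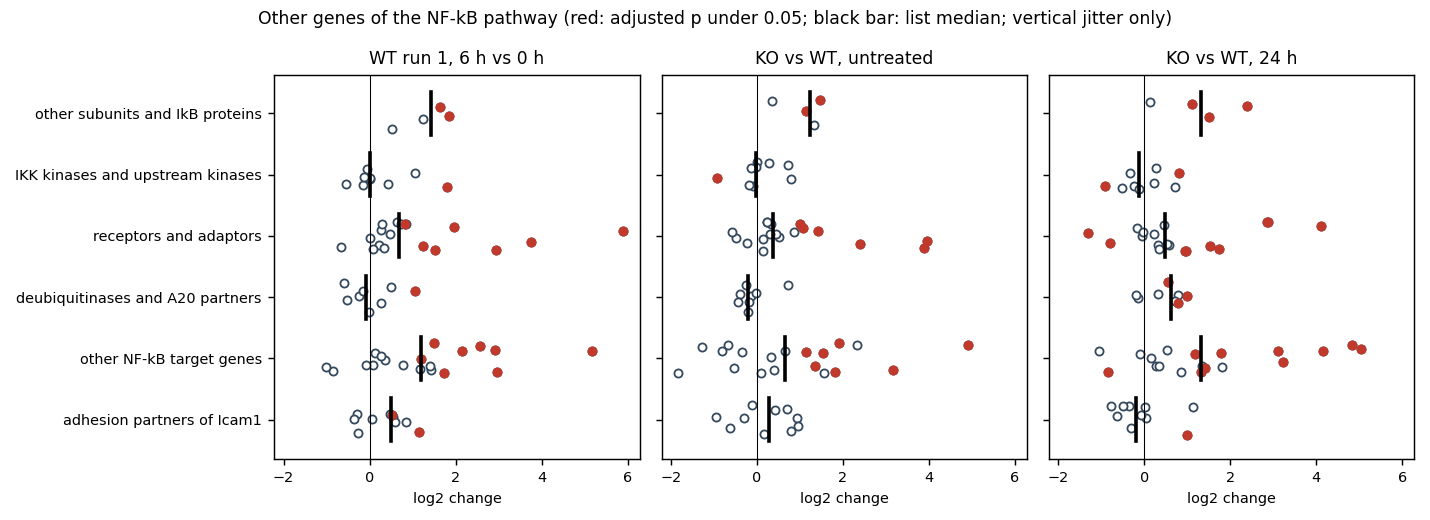
Log2 changes of other NF-kB pathway genes by role for WT of run 1 at 6 h against 0 h, untreated KO against WT, and KO against WT at 24 h (points: genes, red where the adjusted p is under 0.05; black bars: list medians; position within a row is for display only). Targets hold 8, 7 and 9 of 19 genes called higher in the panels from left to right, where 10.8%, 8% and 11.3% of all genes were. The adhesion row is a wider list and not of Icam1 partners alone.

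In BV-2 cells the arrays labelled Usp18 siRNA had more Nfkbie mRNA at 24 h of IFN-b than those given control siRNA. Nfkbie read 6.00 and 6.51 with Usp18 siRNA and 4.83 and 4.67 with control siRNA (1.51 ± 0.20, adjusted p = 0.0111). The gene passed the filter on dim probe sets in BV-2 only through these 2 arrays, so it had to differ there, and the value is a description. It was the 1 member called of 7, where 3.07% of all 7163 genes were higher, 2.28% lower and 5.35% either. Icam1 read 8.999 and 9.363 against 8.22 and 8.14 (1.00 ± 0.35, adjusted p = 0.105), Tnfaip3 6.40 and 7.34 against 5.96 and 5.99 (0.90 ± 0.31, 0.102) and Nfkbia 12.51 and 12.56 against 12.14 and 11.85 (0.54 ± 0.16, 0.0772). Both Usp18 siRNA arrays lay above both controls for 6 of the 7 genes, all but Rela, and for 26.2% of all genes. For Nfkbie this goes with the filter named above. Icam1, Tnfaip3, Nfkbia, Nfkb2 and Relb did not pass the test, although 2 other probe sets of Nfkbia did (limma, 0.92 ± 0.17, adjusted p = 0.0335, and 0.74 ± 0.17, 0.0482). Without the BV-2 array in doubt Icam1 passed (1.00 ± 0.17, 0.0229). Nfkbie lost its call without either control array at 24 h (1.59 and 1.43, adjusted p = 0.0955 and 0.0939) and was not tested without either Usp18 siRNA array of that time, since it then failed the filter.

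Before and at 6 h of IFN-b none of the 7 genes differed by siRNA (0% of all genes did at either time; 176 and 1007 had an unadjusted p under 0.05 by limma). Icam1 was 7.83 and 8.15 with Usp18 siRNA and 7.93 and 7.84 with control siRNA untreated. With control siRNA, 0 of 7 genes responded at 6 h or 24 h (0.991% and 0.503% of genes did), and Icam1 read 8.59 and 8.48 at 6 h (0.65 ± 0.35, adjusted p = 0.983). With Usp18 siRNA, Icam1 rose from 0 h to 24 h by 1.19 ± 0.35 (adjusted p = 0.0494) and Nfkbie, again after a filter passed by the 24 h arrays alone, measured 1.54 ± 0.20 (0.00431), where 6.62% of genes rose and 9.24% fell (474 and 662 genes, or 494 and 430 with centred arrays). The Icam1 call was lost in 9 of 12 fits without 1 array, in which its change ran from 1.01 to 1.37. At 6 h with Usp18 siRNA 0 of 7 were called (1.02% of genes rose and 1.97% changed either way), and Icam1 read 8.30 and 9.61, the higher in the array in doubt: the change was 0.96 ± 0.35 with it and 0.31 ± 0.21 without it. Relb in BV-2 passed the filter through 2 arrays, the array in doubt (6.16) among them, and read 4.45 in its partner. The responses of the siRNA groups were not called different in any of the 7 genes at 6 h or 24 h (0% and 0.0279% of genes), with Nfkbie at 1.53 ± 0.28 (adjusted p = 0.215).

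**Figure D5:**
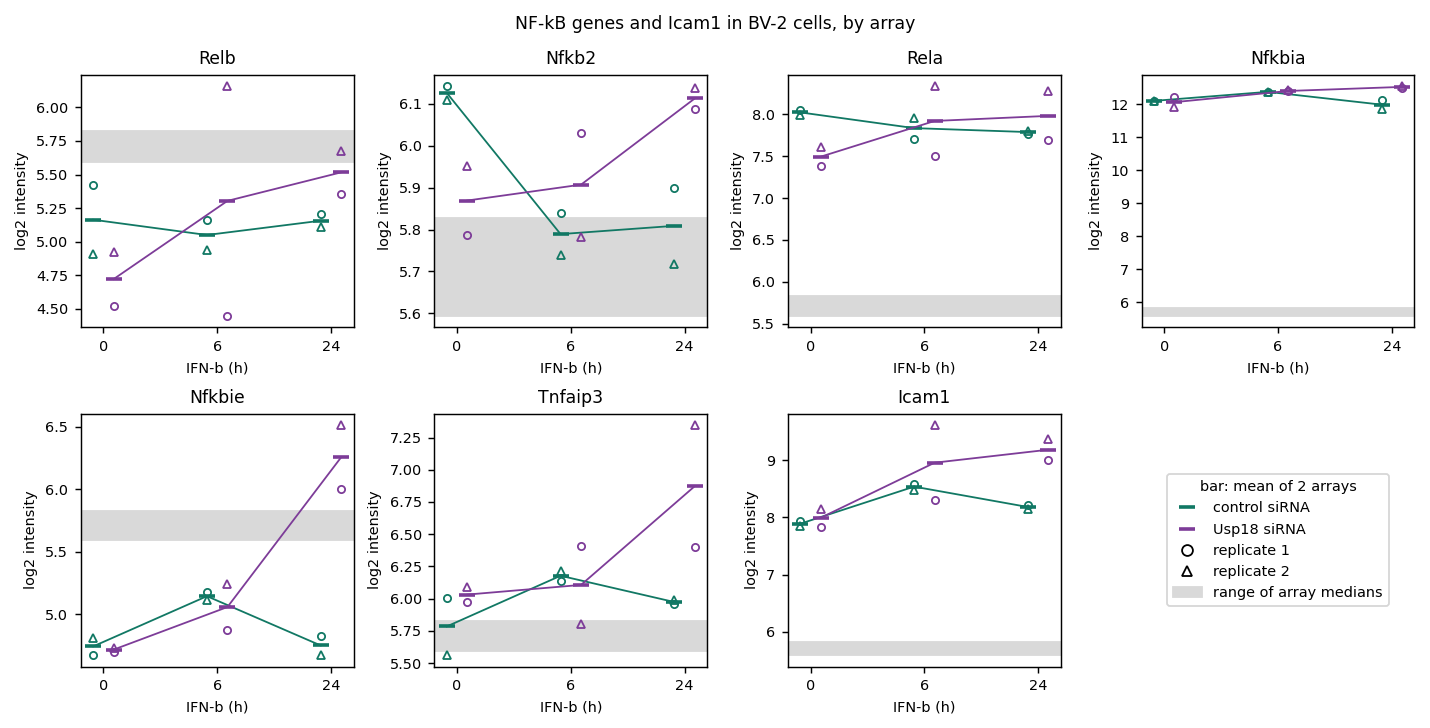
Log2 intensity of the same 7 genes in 12 arrays of BV-2 cells against hours in IFN-b (points: arrays; bars: means of 2 arrays; grey band: range of array medians; each panel has its own scale). At 24 h both Usp18 siRNA arrays of Nfkbie (6.00 and 6.51) exceed the controls (4.83 and 4.67), and the Icam1 and Relb points at 6 h are far apart.

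Beside the BV-2 difference at 24 h, 3 of 10 interferon response genes were higher with Usp18 siRNA, and the list summed to 113.7 to 123.0 against 91.4 to 96.6. Of all genes tested in this comparison, 3.07% were called higher and 2.28% lower. The monocyte and granulocyte genes summed to 27.6 to 31.7 against 24.6 to 25.5, and the endothelium and fibroblast genes to 44.3 to 46.9 against 41.1 to 41.2, with Flt1 called (2.43 ± 0.22) and Pecam1, Cdh5, Kdr, Ccr2 and S100a9 under the array median on all 12 arrays. The part of these genes' sources in the Nfkbie difference was not tested. Of 18 other NF-kB target genes tested in BV-2, 6 were higher and 0 lower, among them Il6 (5.91 ± 0.91), Ptgs2 (3.40 ± 0.65), Nos2 (2.44 ± 0.41) and Ccl4 (2.09 ± 0.45). Of 16 receptors and adaptors 4 were higher, with Tlr3 (3.63 ± 0.55) and Cd40 (3.55 ± 0.48) leading, and 0 of 4 further subunits and 0 of 8 kinases were called.

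The members' patterns were compared across the 12 microglia group means by Pearson's r, which describes groups that share a run and cultures. Relb and Nfkb2 were each other's closest members (0.97), and Nfkb2 was also the closest of all genes tested to Relb, followed by the inflammasome gene Nlrp3 (0.96). Nfkbie ran with Relb (0.93) and Tnfaip3 (0.93), and its closest gene was Tnfsf9 (0.95). Tnfaip3 was closest to Eng (0.98), Pgs1 (0.98) and Nfkbib (0.97), and Rela to Fzr1 (0.99). Over all 12 means Icam1 correlated at 0.83 with Nfkbia and at −0.21 to 0.21 with Rela, Nfkb2 and Relb, and its closest gene was M6pr (0.94). These 3 subunits were higher on every run 1 array than on every run 3 array, so r mixes run and response. Within WT of run 1, means at 0, 6 and 24 h rose and fell for Icam1 (8.45, 10.88, 8.41), Nfkbia (11.87, 12.39, 11.43) and Relb (7.53, 8.97, 7.41). In KO the Icam1 mean rose from 9.99 to 10.59 at 6 h, and that of Relb did not (8.12 and 7.96). The closest gene to Nfkbia was Nab1 (0.97), and to Nfkb2 it was Ncoa5 (0.98).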

How the data were processed

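Values were used as the authors deposited them: log2 intensities by their range (1.664 to 14.03), with the log base not stated. Affy is named, with no version, per the submitters' processing notes; how probe sets were summarised and normalized is not stated there. Probe sets were named through a probe table of 21084 probe sets, of which 20393 had 1 gene and 691 several, and 1606 were not listed. Probe sets exceeding the array median on 2 or more of the fitted arrays were used, the brightest standing for each gene, which left 7960 genes in microglia and 7163 in BV-2. Groups, comparisons and differences of responses were fitted with limma 3.58.1 (R 4.3.3) by group, with moderated variances and p-values adjusted over all genes tested (Benjamini-Hochberg), with 0.05 as the threshold and 12 or 6 residual degrees of freedom. The procedure was tested on simulated data. The number of arrays, 2 in each group, limits the precision. The degrees of freedom count same-numbered arrays at different times as independent, although these correlated. Tests of KO against WT at 0 h, 6 h and 24 h may thus rest on the same cultures. Their p-values may be too small, and the times are not independent of each other.

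Deviations of same-numbered WT arrays from their group means correlated across times at 0.434 to 0.672 (run 1) and 0.296 to 0.520 (run 3), so the numbers were taken to pair the WT cultures, and the blocked value is given. Those of KO (0.685 to 0.811, run 1) and C61A (0.538 to 0.655, run 3) correlated more highly than WT of their run. Their blocked calls are given beside the unpaired ones. The members, gene lists and arrays in doubt were chosen with earlier results of these data known. The text names all members, Usp18, up to 4 called genes of each list whose arrays do not overlap, and up to 3 genes with the closest pattern. Marker genes are named beside the results they move with, chosen after their values were seen. Alternatives were other filters, normalizations, probe set summaries, blocks, run terms and priors, and leaving out arrays. Figures were drawn with matplotlib 3.10.9 in Python 3.11.15.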

Additional observations from a re-analysis of the deposited data

Results flagged for a closer look

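The 2 results below stand out because the effect of a contrast differed between groups by a test of the difference itself, out of 77 such tests of members, each adjusted over all genes. Untreated Icam1 differed more between KO and WT of run 1 than between C61A and WT of run 3, by 1.88 on the log2 scale. Without the 3 arrays in doubt this was 1.46, and the call held in only 11 of 24 fits without 1 array. Relb responded less to 6 h of IFN-b in KO than in WT of run 1, with a difference of −1.59 whose call held in 12 of 24 such fits. The groups hold 2 arrays each, so single arrays far from their group, such as the 3 in doubt, could not be tested.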

How the results depend on the processing

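No called change of a member reversed its direction under any alternative run. The replicate block joined same-numbered arrays of a run across genotypes or siRNAs. The block by culture joined them within 1 genotype or siRNA only. The number of the 7 members called changed as follows. Under a replicate block it rose from 3 to 6 for the WT response at 6 h, from 0 to 1 for the C61A response at 24 h (Icam1), from 1 to 2 for KO minus WT response at 6 h, from 0 to 1 for KO minus C61A effect at 24 h (Nfkbia), and from 1 to 2 for Usp18 against control siRNA at 24 h (Nfkbia), and with the block by culture it was 6, 4 (C61A response), 4 (KO minus WT), and 1 each for the KO response at 6 h (Tnfaip3), the Usp18 siRNA response at 6 h (Icam1) and the difference of siRNA responses at 24 h (Nfkbie). Outside WT, same-numbered arrays correlated across times at 0.685 to 0.811 in KO and 0.538 to 0.655 in C61A, above WT of their own run. The values were 0.310 to 0.759 with control siRNA, 0.412 to 0.526 with Usp18 siRNA, and −0.460 to −0.0437 between genotypes. KO and C61A cultures thus had as much ground for pairing as WT, and their unpaired counts are to be read beside the blocked ones. With run as an additive term the number of members called fell to 0 for the WT response at 6 h and for KO against WT at 0 h, 6 h and 24 h. It also fell to 0 for KO minus WT response at 6 h and for KO minus C61A effect at 0 h, and rose to 1 for that effect at 6 h (Tnfaip3). For KO against WT at 0 h it was 3 after quantile normalization, 2 with median-centred arrays and 2 without the 3 doubted arrays. Without those arrays it was also 1 for the C61A response at 24 h, 2 for KO minus WT response at 6 h, 0 for KO minus C61A effect at 0 h and 2 for the siRNA comparison at 24 h. With no filter it was 0 for KO minus C61A effect at 0 h and 1 for the Usp18 siRNA response at 24 h. The stricter filter on array counts gave 1 and, for the siRNA comparison, 0, where averaged probe sets and a trended prior gave 2 each. Leaving out single arrays gave 2 to 5 for the WT response at 6 h (3 to 5 in run 1), 0 to 2 at 0 h, 0 to 2 at 6 h and 2 to 4 at 24 h for KO against WT, 0 to 1 for the KO response at 6 h and the C61A response at 24 h, 0 to 2 for KO minus WT response at 6 h, 0 to 1 for KO minus C61A effect at 0 h, 0 to 2 and 0 to 3 for the Usp18 siRNA responses at 6 h and 24 h, and 0 to 1 and 0 to 2 for the siRNA comparison at 6 h and 24 h. Over all genes, the WT response at 6 h had 1226 calls, 619 with run as an additive term, 2632 with the block by culture and 1876 without the 3 doubted arrays, and KO against WT at 0 h had 1336 and 573 with the run term. KO against WT at 6 h had 662 calls, 1285 with the run term, 1105 with the replicate block and 1002 without the doubted arrays, and KO minus WT response at 6 h had 91, with 2 under the run term and 467 under the block by culture. The siRNA comparison at 24 h had 383, with 161 under no filter, 1456 under the block and 660 without the doubted array. Without the doubted arrays the 6 h responses of WT run 3 and of C61A had 255 and 413 calls in place of 1 and 4. With single arrays left out KO against WT ran from 175 to 1553 calls at 0 h, 19 to 1260 at 6 h and 1012 to 2477 at 24 h, and the siRNA comparison at 24 h from 5 to 1917. The causes of these changes were not tested. Levels near the array median (Nfkbie, Tnfaip3, and Relb in BV-2) limit what the arrays can show.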
